A study of Mus musculus with 120 samples.

Results

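The genes described here are 8 parts of the cellular oxygen-sensing pathway: the prolyl hydroxylases Egln1, Egln2 and Egln3, the ubiquitin ligase subunit Vhl, the hypoxia-inducible factor (HIF) alpha subunits Hif1a, Epas1 and Hif3a, and the secreted target Vegfa. They were chosen by name as known members of the pathway, and each has a row in the deposited count tables of both tissues, 8 of 53656 genes. All 8 passed the filter on low counts in both tissues, among 13935 genes tested in soleus and 15723 in heart. A lower level of Egln3 in ANT1 heart was already known when the genes were chosen, so the Egln3 differences in ANT1 hearts of either treatment, and those between soleus and heart that rest on them, are given as a description with no test.

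RNA was sequenced from whole soleus, a postural leg muscle rich in slow fibres, and from heart. ANT1 mice carry the genotype Slc25a4-/- and lack the adenine nucleotide translocator of the inner mitochondrial membrane, which is the main form in heart and muscle. They were set against 3 strains with a missense mutation in mitochondrial DNA (mtDNA): ND5 (m.12352C>T, S204F, complex I), ND6 (m.13997G>A, P25L, complex I) and CO1 (m.6589T>C, V421A, complex IV). All 4 strains share the C57BL/6Eij (Nnt+/+) background, so every group compared carries a mitochondrial mutation, and an ANT1 difference is a difference between mutants. Mice were 16 weeks old at the start. Exercised mice were trained on every 2nd day over 8 weeks, in sessions of 45 min at 50% of their maximal running capacity, and tissue was taken 6 days after the last session. Non-exercised mice had no such training. Each strain, treatment and tissue has 6 libraries, 96 used in all, and by the codes in their titles the libraries of a group come from separate mice.

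Oxygen is sensed by the Egln enzymes, which use it to hydroxylate proline residues of HIF alpha subunits. Vhl then binds the hydroxylated subunit and marks it for breakdown by the proteasome, and when oxygen is short the subunits persist, pair with Arnt and switch on genes of glycolysis, red cell production and vessel growth. Much of this control acts on protein, which was not measured. Egln3 is itself a HIF target in many cell types, Epas1 (HIF-2 alpha) is abundant in endothelium and heart, and Vegfa made by muscle cells acts on the capillaries around them.

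The sequences just upstream of a RefSeq start of 4 members are shown, because these are the members whose RNA passed the test in ANT1 mice and for which a promoter was at hand. Each is the run of 250 bases before the RefSeq start (GRCm38.p6), written 5′ to 3′ on the gene's strand. The RefSeq starts are not always those of the gene intervals given below: the Hif1a window lies wholly inside that gene's interval, and the Vhl window overlaps the first bases of its own. Capitals mark ACGTG and GCGTG, the core letters of the element that HIF proteins bind, searched on both strands (a match on the opposite strand reads CACGT or CACGC).
Egln3, chr12:54203875-54204124, minus strand: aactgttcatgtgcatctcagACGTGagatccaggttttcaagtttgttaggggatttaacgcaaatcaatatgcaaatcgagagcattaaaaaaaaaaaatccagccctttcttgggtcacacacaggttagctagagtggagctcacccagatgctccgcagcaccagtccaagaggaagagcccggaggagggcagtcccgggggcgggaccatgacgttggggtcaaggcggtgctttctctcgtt
Hif1a, chr12:73907617-73907866, plus strand: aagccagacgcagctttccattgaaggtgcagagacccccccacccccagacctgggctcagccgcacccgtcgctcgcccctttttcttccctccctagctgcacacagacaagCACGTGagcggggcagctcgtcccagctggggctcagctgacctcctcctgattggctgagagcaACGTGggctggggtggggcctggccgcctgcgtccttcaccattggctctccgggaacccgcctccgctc
Vegfa, chr17:46032378-46032627, minus strand: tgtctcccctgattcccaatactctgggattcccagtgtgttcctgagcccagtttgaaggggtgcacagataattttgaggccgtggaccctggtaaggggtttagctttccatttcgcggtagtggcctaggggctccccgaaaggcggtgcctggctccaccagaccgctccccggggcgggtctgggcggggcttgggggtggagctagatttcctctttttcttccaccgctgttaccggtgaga
Vhl, chr6:113623744-113623993, plus strand: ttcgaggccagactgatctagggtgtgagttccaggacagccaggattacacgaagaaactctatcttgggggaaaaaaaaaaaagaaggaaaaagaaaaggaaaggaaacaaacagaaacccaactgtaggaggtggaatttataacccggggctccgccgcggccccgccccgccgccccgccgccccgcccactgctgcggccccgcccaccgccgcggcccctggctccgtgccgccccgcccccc
The Egln3 window holds 1 ACGTG, 229 bases before the start. The Hif1a window holds 3 matches to ACGTG, of which those 135 and 134 bases before the start overlap on opposite strands. The printed windows of Vegfa and Vhl hold 0, while the window of another Vegfa start in the table, further into the gene, holds 1 match to each motif. The first listed windows of Egln1, Egln2 and Hif3a, not printed, hold 2, 4 and 2 matches. Of 32851 promoters of the same length, 38.6% hold either motif on either strand, and 16.7% hold at least 2 matches. Promoters of 7 of the 8 members were in the table. A match of 5 letters is a description of this window and not a binding site, and no match says only that these letters are not in it.

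In mm10 the genes are spread over 5 chromosomes. Egln3 lies at chr12:54178981-54203860 (minus strand), Hif1a at chr12:73901375-73947530 (plus), Epas1 at chr17:86753700-86833410 (plus), Vegfa at chr17:46016993-46032369 (minus) and Vhl at chr6:113623959-113631633 (plus). Egln2 and Hif3a lie on chromosome 7, and Egln1 lies on chromosome 8, 78.7 Mb from Slc25a4. Egln2 overlaps Cyp2t4, and Hif1a and Hif3a each overlap a non-coding gene on the opposite strand. The labels do not say that strand was kept, so reads of Egln2, Hif1a and Hif3a cannot be fully told apart from those of these partners. On the same strand Epas1 overlaps AC096777.1 and Hif1a overlaps Gm49321, whose reads could be mixed with theirs in any library.

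Totals ran from 10.21 to 20.75 M (mega) counts per soleus library and from 19.65 to 26.51 M per heart library. Slc25a4 was lower in all 12 ANT1 libraries than in all 36 of the mtDNA strains, in each tissue. The share of counts from mtDNA genes was 33.99 to 47.6% in ANT1 soleus against 12.9 to 24.8% in the other strains, and 21.6 to 39.4% in ANT1 heart against 9.23 to 32.1%. The heart of ND5 mouse B80 stood apart, with the lowest Slc25a4 of the mtDNA strains (471 CPM, the count relative to the scaled library size), the lowest Egln1 (78.7 CPM) and the lowest Vegfa (84.5 CPM) of all hearts. Its code occurs in soleus with the opposite treatment label, and tests and correlations in heart were repeated without it. Ventricular markers summed to 3889 CPM in that heart and to 24524 to 54012 CPM in exercised hearts. The slow-fibre list, which also holds Myh2, a myosin of fast IIA fibres, summed to 25864 to 43943 CPM in soleus. Atrial marker genes varied widely among hearts, with a summed level of 91.0 to 25591 CPM in exercised ANT1 hearts against 71.6 to 29568 CPM in exercised mtDNA hearts, and of 91.6 to 22404 against 48.2 to 37064 CPM in non-exercised ones. Of 8 atrial markers 0 were called in either ANT1 heart comparison by edgeR (0 also at an unadjusted p under 0.05). Their median log2 difference was 0.68 in exercised and 1.73 in non-exercised hearts. With so wide a spread, the lack of calls does not show that the groups held a like share of atrium.

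Levels per length were compared first, as deposited FPKM over 48 libraries per tissue. Vegfa was the most abundant of the 8 transcripts, with a median of 149 FPKM in soleus and 151 FPKM in heart, followed by Egln1 with 96.8 and 99.4 FPKM. Their ranges overlapped in both tissues. Epas1 stood at 37.8 FPKM in soleus and 57.8 FPKM in heart, where Hif1a stood at 8.02 and 12.9 FPKM. Every Epas1 value lay above every Hif1a value within each tissue (24.6 to 46.6 against 3.16 to 13.2 FPKM in soleus, 40.4 to 73.3 against 7.37 to 21.5 FPKM in heart). Hif3a, which makes both activating and inhibitory forms, was close to the limit of detection at 0.200 FPKM in soleus and 0.435 FPKM in heart, with 1 to 55 counts per soleus library. Vhl was also low, at 1.96 and 3.30 FPKM.

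Among the hydroxylases the order of the medians differed between tissues when all strains were pooled. The pooled hearts include the ANT1 hearts, in which Egln3 was low, so this order is not read as a trait of heart. In heart Egln2 and Egln3 had medians of 18.6 and 17.3 FPKM, and their ranges overlapped (13.7 to 26.3 and 1.92 to 52.4 FPKM). In soleus Egln3 had a median of 52.7 FPKM (9.91 to 90.9) and Egln2 28.9 FPKM (15.5 to 34.8), again with overlapping ranges. Of the hydroxylases Egln3 in heart had the widest range relative to its median.

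**Figure D1:**
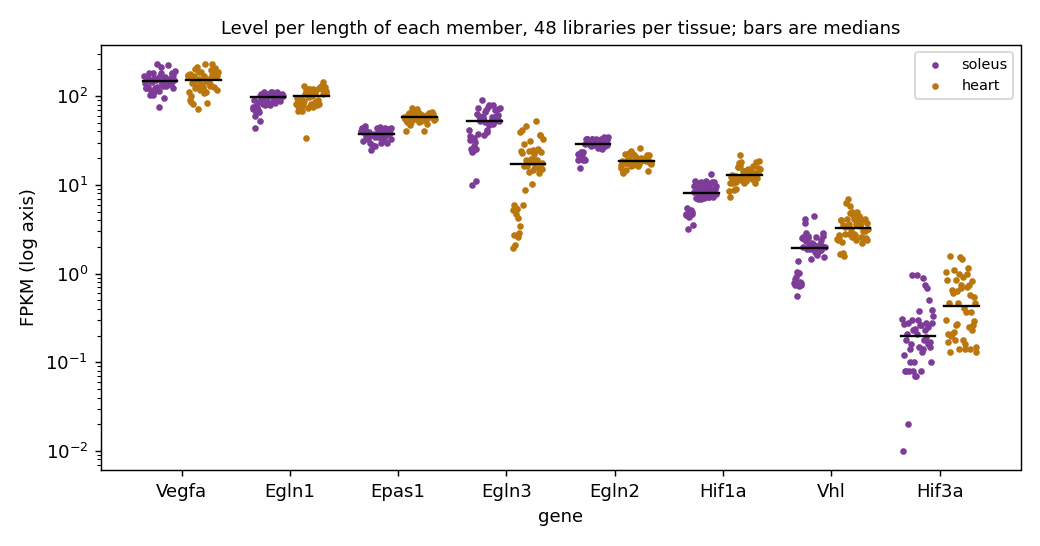
Deposited FPKM (vertical log axis) of each of the 8 genes in 48 soleus and 48 heart libraries, with a bar at the median of each tissue. Vegfa and Egln1 lie highest and Hif3a lowest in both tissues, and Egln3 in heart has a tail of low libraries.

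Soleus and heart were then compared over all 96 libraries. Of the 8 genes, 7 differed, which is a share like that of all genes in this comparison (86.8% called at an adjusted p under 0.05, edgeR's quasi-likelihood test with Benjamini-Hochberg adjustment over all tested genes, used for every adjusted p below unless another tool is named). Egln3 stood at 42.4, 127 and 215 CPM (lowest, median and highest) in soleus and at 5.38, 34.8 and 123 CPM in heart. The log2 difference was 1.90 ± 0.12 (SE, n = 48 each). Egln3 is among the 7, but its value is a description, since it rests in part on the ANT1 hearts. Egln2 was higher in soleus as well, at 41.8, 53.1 and 64.8 CPM against 23.4, 30.6 and 42.1 CPM in heart (0.81 ± 0.03, adjusted p = 1.25e-40). The ranges of both genes overlapped between tissues, and for Egln2 only at the edge. Vegfa was higher in soleus by 0.30 ± 0.09. Lower in soleus were Hif3a (-1.06 ± 0.17), Vhl (-0.74 ± 0.05), Hif1a (-0.59 ± 0.05) and Epas1 (-0.43 ± 0.05). Egln1 did not pass (0.06 ± 0.07, adjusted p = 0.442). With the mouse as a block, 7 genes were again called. In bulk tissue, fewer cells of a type and less RNA per cell cannot be told apart, here or in any comparison below.

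In heart, Egln3 was far lower in ANT1 mice than in the mtDNA strains. In exercised hearts it stood at 6.26, 10.3 and 15.9 CPM (lowest, median and highest of 6) in ANT1, against 15.3, 44.9 and 116 CPM in the 18 mtDNA hearts. Of 6 exercised ANT1 hearts, 5 lay below every mtDNA heart, and 1 mtDNA heart, that of ND5 mouse B11, lay just below the highest ANT1 heart. The log2 fold change was -2.22 ± 0.38 (SE), and the mean in the mtDNA hearts was 4.76 times that in ANT1. At an adjusted p under 0.05, 1.32% of all tested genes fell and 3.45% rose in exercised heart. No call is read for Egln3, since the choice of genes knew its direction. Those shares stand for 208 and 543 genes, against 229 and 354 with mtDNA counts removed.

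In non-exercised hearts the values were 5.90, 9.75 and 15.5 CPM in ANT1 against 10.01, 51.2 and 131 CPM in the mtDNA strains. The groups overlapped through the heart of ND5 mouse B80, at 10.01 CPM, which lay below 3 of the ANT1 hearts. The log2 fold change was -2.46 ± 0.38, and 0.299% of all tested genes fell and 0.617% rose in this comparison, which the choice of genes already knew. Without B80 it was -2.55, and in exercised hearts -2.24.

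By strain, the median of exercised hearts was 38.0 CPM for ND5, 38.0 CPM for ND6 and 67.7 CPM for CO1, and that of non-exercised hearts was 46.6, 51.6 and 56.95 CPM. The lower Egln3 was found against each of these strains alone. In exercised mice the log2 fold change was -2.26 against ND5, -1.82 against ND6 and -2.57 against CO1, and in non-exercised mice -2.43, -2.34 and -2.62. Leaving out each heart in turn gave -2.36 to -2.08 in exercised and -2.61 to -2.34 in non-exercised mice. With the mean log2 level of the atrial markers as a covariate it was -2.23 and -2.29. Counts of Egln3 ran from 108 to 305 per ANT1 heart and from 352 to 2869 per mtDNA heart, so counting error is small beside the spread between mice.

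**Figure D2:**
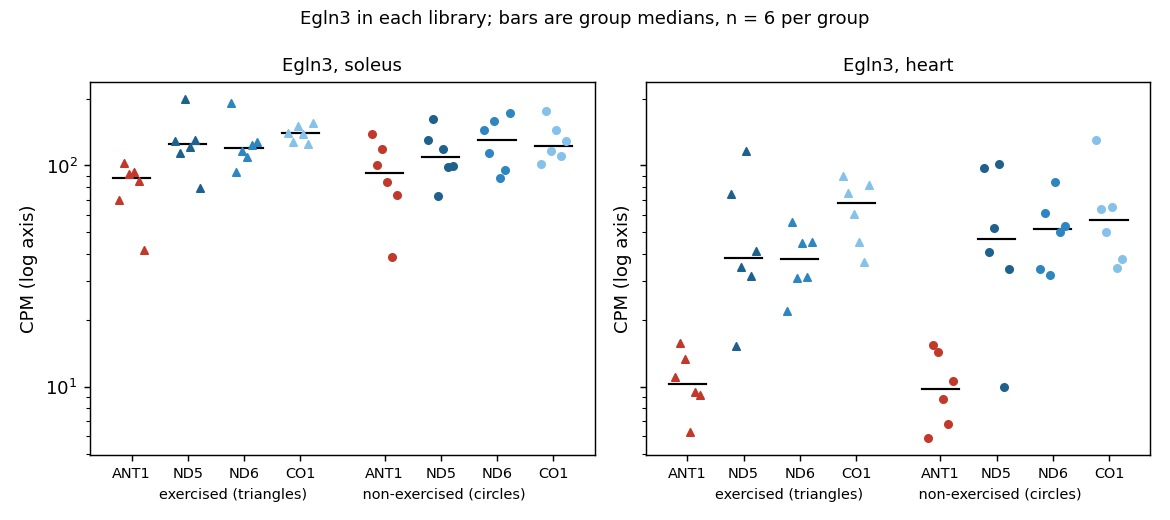
Egln3 in CPM (log axis) in each library of soleus and heart, by strain and treatment, with bars at the median of 6 libraries. The 12 ANT1 hearts lie between 5.90 and 15.9 CPM, and only 2 of 36 mtDNA hearts lie that low.

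Apart from Egln3, whose heart values are a description, no member was called in ANT1 heart. Egln2, the hydroxylase named PHD1, stood at 33.1, 34.8 and 46.1 CPM in exercised ANT1 hearts against 25.7, 31.1 and 42.3 CPM in mtDNA hearts, groups that overlapped. Its log2 difference was 0.22 ± 0.08 (adjusted p = 0.0836), and it was called without the heart of ND6 mouse I4 (adjusted p = 0.0491) and with the atrial covariate (adjusted p = 0.0412). Egln1, the main hydroxylase of HIF in most cells, stood at 211, 330.0 and 409.5 CPM in exercised ANT1 hearts against 182.5, 359.6 and 485 CPM in mtDNA hearts, and the log2 difference was -0.06 ± 0.20 in exercised and -0.13 ± 0.20 in non-exercised mice. The ANT1 hearts lay within the range of the mtDNA hearts. Epas1 in exercised hearts stood at 239, 318 and 432.5 CPM in ANT1 against 180.5, 270.1 and 342 CPM in the mtDNA strains, with 3 ANT1 hearts above every mtDNA heart. The differences of the HIF subunits in exercised hearts were 0.27 ± 0.11 for Epas1 (adjusted p = 0.163), -0.06 ± 0.13 for Hif1a and 0.31 ± 0.38 for Hif3a. The Epas1 difference was called only with the atrial covariate (0.23, adjusted p = 0.0495). With that covariate 992 of all genes were called higher and 457 lower in exercised heart, against 543 and 208 without it. Vhl differed by -0.25 ± 0.12 (adjusted p = 0.230) and Vegfa by 0.13 ± 0.24. In non-exercised hearts these 5 genes lay between -0.21 (Hif3a) and 0.08 (Epas1).

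In soleus other members moved, and in both directions. On the CPM scale Epas1 and Vegfa rose while Hif1a and Vhl fell in ANT1 mice of either treatment, and Egln3 fell in exercised mice; on the deposited FPKM scale, on which most genes lay lower in ANT1 soleus, the sign of Vegfa turned (-0.04 in exercised and -0.11 in non-exercised mice). That makes 2 of 8 members that rose and 3 that fell in exercised soleus, where 21.1% of all tested genes rose and 22.4% fell. In non-exercised soleus 2 rose and 2 fell, beside 22.4% and 25.4% of all tested genes. The members' counts lie near these shares and are not a result about the 8 genes as a group.

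Epas1 separated ANT1 from the mtDNA strains completely on the CPM scale, though its difference was not called on the FPKM scale. In exercised soleus it stood at 248, 257 and 303 CPM in ANT1 against 115, 169 and 227 CPM in the mtDNA strains, and in non-exercised soleus at 257, 282 and 298 against 91.5, 170.1 and 205 CPM. All 12 ANT1 libraries lay above all 36 others. The log2 fold change was 0.66 ± 0.10 (adjusted p = 8.43e-07) in exercised and 0.78 ± 0.10 (adjusted p = 1.39e-08) in non-exercised mice.

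Vegfa rose with overlap. It stood at 261, 340.0 and 450 CPM in exercised ANT1 soleus against 134, 252 and 339 CPM in the mtDNA strains, and at 308, 330.1 and 425 against 153, 232 and 374 CPM in non-exercised mice. The upper mtDNA libraries reached into the ANT1 range. Log2 fold changes were 0.48 ± 0.14 (adjusted p = 0.00586) and 0.52 ± 0.14 (adjusted p = 0.00230). Against CO1 alone the rise was not called (0.29, adjusted p = 0.2215 in exercised and 0.43, adjusted p = 0.0547 in non-exercised mice), nor against ND6 alone in non-exercised mice (0.37, adjusted p = 0.1165).

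Vhl, the subunit that recognises hydroxylated HIF, fell under both treatments. In exercised soleus it stood at 2.55, 2.85 and 4.17 CPM in ANT1 against 3.72, 4.69 and 6.79 CPM in the mtDNA strains, and in non-exercised soleus at 2.29, 2.83 and 3.45 against 3.51, 4.501 and 7.70 CPM. All 6 non-exercised ANT1 libraries and 5 of the 6 exercised ones lay below every mtDNA library of that treatment. Log2 fold changes were -0.67 ± 0.13 (adjusted p = 5.38e-05) and -0.73 ± 0.13 (adjusted p = 1.51e-05). These levels rest on 22 to 58 counts per ANT1 library and 51 to 135 per mtDNA library.

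Hif1a fell where its relative Epas1 rose. It stood at 23.3, 25.9 and 31.7 CPM in exercised ANT1 soleus against 26.99, 33.3 and 39.3 CPM in the mtDNA strains, and at 20.05, 24.9 and 29.97 against 26.1, 34.9 and 47.6 CPM in non-exercised mice. In each treatment 4 of 6 ANT1 libraries lay below every mtDNA library. Log2 fold changes were -0.34 ± 0.10 (adjusted p = 0.00345) and -0.46 ± 0.10 (adjusted p = 0.000131), and the exercised value was not called against ND5 alone (-0.20, adjusted p = 0.171).

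**Figure D3:**
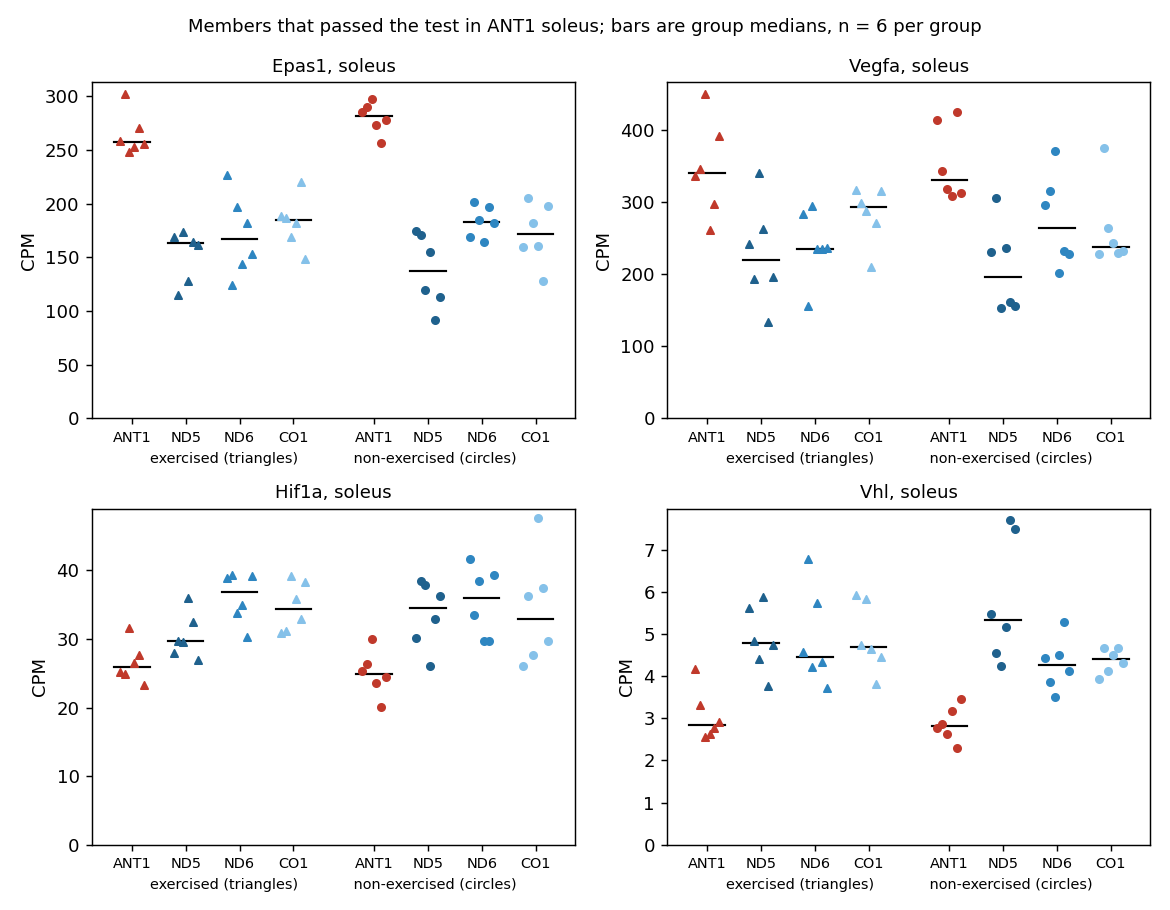
CPM of Epas1, Vegfa, Hif1a and Vhl in each soleus library, by strain and treatment, with bars at the median of 6 libraries and axes from 0. Epas1 in ANT1 mice (248 to 303 CPM) lies above every other library, whereas the ANT1 and mtDNA ranges of Vegfa overlap.

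Egln3 was also lower in ANT1 soleus, with a smaller log2 difference than in heart. In exercised soleus it stood at 41.5, 88.2 and 103 CPM in ANT1 against 79.4, 128 and 199 CPM in the mtDNA strains, with 2 mtDNA libraries below the highest ANT1 library (-0.70 ± 0.19, adjusted p = 0.00219). In non-exercised soleus the values were 38.65, 92.3 and 139 against 72.7, 118 and 175.5 CPM, with broad overlap (-0.42 ± 0.19, adjusted p = 0.0580). The non-exercised difference was not called, but it was called by DESeq2 (adjusted p = 0.04997) and on leaving out any of 6 libraries, among them ANT1 mouse A4 (-0.56, adjusted p = 0.0177); without ANT1 mouse A82 it was -0.25, not called. Egln1, Egln2 and Hif3a did not pass in soleus, with log2 differences of 0.08 ± 0.09, 0.04 ± 0.06 and -0.44 ± 0.39 in exercised mice and of 0.11 ± 0.09, 0.05 ± 0.06 and -0.05 ± 0.37 in non-exercised mice.

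**Figure D4:**
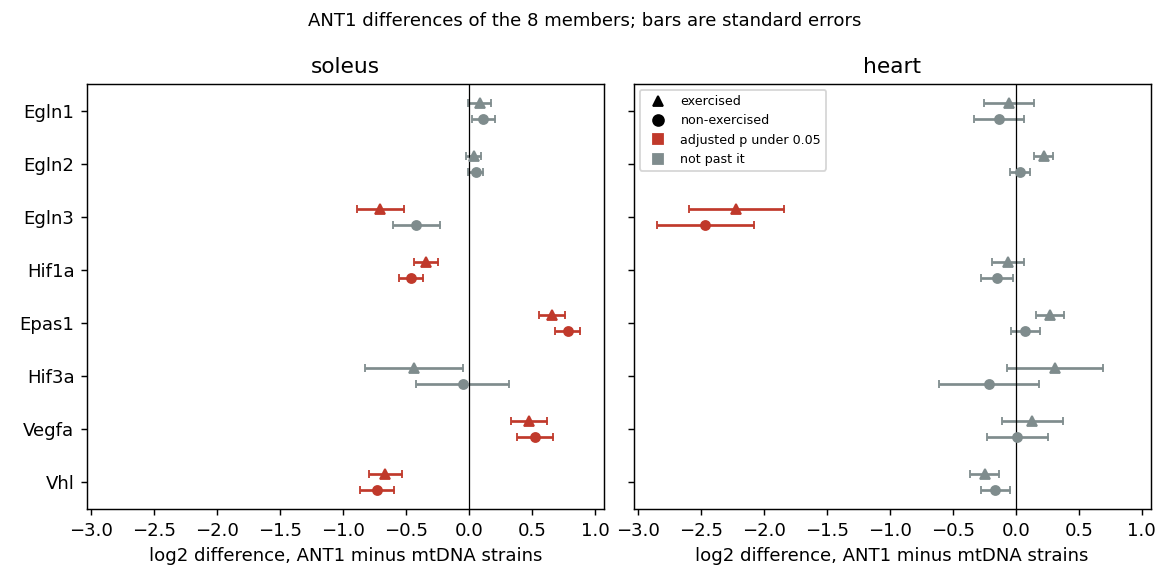
Log2 difference of each member, ANT1 minus the mean of the mtDNA strains, in soleus and heart of exercised (triangles) and non-exercised (circles) mice, with standard errors and red for an adjusted p under 0.05. Egln3 in heart lies below -2, and the other red points are all in soleus, between -0.73 and 0.78. The red Egln3 points in heart are a description, since its fall there was known when the genes were chosen.

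The ANT1 difference was then compared between the tissues. For Egln3 soleus exceeded heart by 1.56 ± 0.39 in exercised and by 2.07 ± 0.39 in non-exercised mice, a description, since both values rest on the heart levels known when the genes were chosen. Among the other 7 members 0 were called in exercised mice by edgeR or by limma voom with the mouse as a block, and 2 passed at an unadjusted p under 0.05 in edgeR, Epas1 (0.42 ± 0.16, adjusted p = 0.0869) and Vhl (-0.38 ± 0.17, adjusted p = 0.135), where 9.26% of all genes were called. In non-exercised mice, beside 11.1% of all genes, Epas1 was called (0.74 ± 0.16, adjusted p = 0.00108), as was Vhl (-0.54 ± 0.17, adjusted p = 0.0253). The Vhl call was lost with the mouse as a block (-0.52, adjusted p = 0.102, limma voom). For Hif1a and Vegfa the tissue difference did not pass (-0.27 ± 0.16, adjusted p = 0.273, and 0.55 ± 0.29, adjusted p = 0.228, in non-exercised mice), so their calls in soleus alone do not show a difference between tissues.

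Scaling matters for the direction of the soleus results. CPM here is scaled so that most genes stay level between libraries (median log2 difference of all genes -0.02 in exercised and -0.04 in non-exercised soleus). On the deposited FPKM scale the median gene lay lower in ANT1 soleus by -0.54 and -0.65, and there Vegfa turned to -0.04 and -0.11, Egln1 to -0.46 and -0.56 and Egln2 to -0.50 and -0.63, in exercised and non-exercised mice. Epas1 stood at 0.12 and 0.14 on that scale, not called (limma, adjusted p = 0.220 and 0.135). Relative to the median gene of the FPKM scale, Epas1 was at 0.66 and 0.79, Vegfa at 0.50 and 0.54, Hif1a at -0.33 and -0.40, Vhl at -0.72 and -0.68, and Egln3 at -0.75 and -0.49. In heart the median gene lay at -0.26 and -0.25 on that scale, and Egln3 relative to it at -2.13 and -2.36. The list genes below are given on the CPM scale, so a rise or a fall in soleus is relative to most genes. On the FPKM scale 21 and 26 of the 29 HIF targets tested were called. Of all 13935 genes tested, 384 were called higher and 10426 lower on that scale in exercised mice, and 354 and 11226 in non-exercised mice. Nothing particular to HIF targets is read from these counts. The higher share of mtDNA counts in ANT1 soleus moves with this shift, and its part in it was not tested; removing mtDNA genes from the count-based library sizes left the number of members called at 5 and 4.

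No member passed the test for training. Across the 4 strains and their mean, in both tissues, 0 members were called by edgeR and 0 by DESeq2, as were 0% of all tested genes by edgeR in each comparison, and 1 member passed at an unadjusted p under 0.05. That was Epas1 in ND6 heart, at 180.5, 242 and 262 CPM in exercised mice against 219.8, 313 and 349.9 CPM in non-exercised mice (-0.35 ± 0.14, edgeR's adjusted p = 0.871). Averaged over the strains, the log2 differences in soleus lay between -0.17 ± 0.22 (Hif3a) and 0.05 (Egln1 and Vhl, SE 0.06 and 0.08), and in heart between -0.16 ± 0.15 (Vegfa) and 0.06 ± 0.24 (Hif3a). The ANT1 difference itself did not differ between exercised and non-exercised mice at this threshold for any member (0 called by edgeR and DESeq2, 0% of all genes by edgeR, 0 members at an unadjusted p under 0.05). For Egln3 that difference of differences was 0.24 ± 0.47 in heart and -0.29 ± 0.26 in soleus, so shifts of that size would not have been resolved.

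Exercised mice carry a response class in the soleus labels, with 3 responders and 3 non-responders per strain. Egln3 had a median of 125 CPM in the 12 responders and 114 CPM in the 12 non-responders, Vegfa 264 and 289.5 CPM, and Epas1 183 and 175 CPM, with ranges that overlapped for each. By edgeR and by DESeq2 0 members were called, as were 0% of all tested genes by edgeR, and 0 members passed at an unadjusted p under 0.05. The largest log2 difference by size was that of Hif3a, -0.33 ± 0.30.

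Few of these genes were called between the mtDNA strains. With 6 libraries per group this does not show that the strains were alike. In ND5 against CO1 heart, with B80 included, Egln1 differed by -0.53 ± 0.24 and was not called (adjusted p = 0.127). Of 6 comparisons between non-exercised mtDNA strains (3 per tissue), members were called in 2. In ND5 against CO1 heart Vhl was higher, at 8.03, 9.51 and 12.4 CPM in ND5 against 6.06, 7.04 and 9.81 CPM in CO1 (0.41 ± 0.14, adjusted p = 0.0476, beside 11.2% of all genes called). That call was lost without the heart of B80, 1 of the 6 ND5 libraries (0.32, adjusted p = 0.252, beside 0.0316% of all genes), without the filter on low counts (adjusted p = 0.0856) and with DESeq2's size factors in edgeR (adjusted p = 0.0501). With B80 included, markers of other cells were also higher in ND5: 8 of 8 of matrix fibroblasts (summed level 587 to 3461 CPM in ND5 against 494 to 678 CPM in CO1), 6 of 7 of adipocytes (15.03 to 1341 against 17.2 to 22.1 CPM) and 2 of 8 of atrium (48.2 to 15958 against 81.9 to 796 CPM). No marker of these lists was at 0 in either group, and their part in the Vhl value was not tested. In ND5 against ND6 soleus Epas1 was lower, at 91.5, 137 and 174 CPM in ND5 against 164, 183 and 202 CPM in ND6 (-0.42 ± 0.13, adjusted p = 0.0257), and Vhl was higher, at 4.25, 5.33 and 7.70 against 3.51, 4.27 and 5.29 CPM (0.44 ± 0.15, adjusted p = 0.0368), beside 14.5% of all genes. The ranges of both genes overlapped, and the Vhl call was lost without the filter (adjusted p = 0.0826). In this comparison 6 of 8 macrophage markers rose (summed level 122 to 322 CPM in ND5 against 29.35 to 113 CPM in ND6), as did 5 of 8 of matrix fibroblasts (1098 to 4825 against 448 to 1126 CPM), with no marker of either list at 0. Within soleus groups Epas1 had a Pearson r of -0.66 with the mean level of each of these lists (48 libraries), and their part in the Epas1 difference was not tested. In the other 4 comparisons 0 members and 0% of all genes were called by edgeR, and 2 members, Epas1 and Vhl in ND5 against CO1 soleus, passed at an unadjusted p under 0.05.

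Within groups some of the members varied together in heart. Over the 48 hearts, deviations of log2 CPM from the group means had a Pearson r of 0.85 for Epas1 with Vegfa, 0.83 for Egln1 with Vegfa, 0.79 for Egln1 with Epas1 and 0.74 for Egln1 with Egln3. Vhl went the other way, with -0.73 against Epas1 and -0.72 against Vegfa, and Hif3a had negative values with 6 of the other 7, from -0.36 with Egln3 to -0.56 with Hif1a. Of the remaining pairs, Egln3 stood at 0.64 with Vegfa and 0.51 with Epas1, Egln1 at -0.59 with Vhl, and Egln2 at 0.49 with Epas1. Among the loosest were Hif1a with Egln1 (0.17), with Egln2 (0.18) and with Egln3 (-0.08), and Egln2 with Egln3 (0.12). Without the heart of B80 the value for Egln1 with Egln3 was 0.63 and that for Epas1 with Vegfa 0.84. These libraries share their dissection and depth, and the same genes moved with the mean level of the atrial markers (r of -0.76 for Epas1, -0.72 for Vegfa, -0.64 for Egln1, -0.33 for Egln3, 0.53 for Vhl and 0.64 for Hif3a) and of the ventricular markers (0.89 for Egln1 and 0.57 for Egln3, or 0.83 and 0.40 without B80). Other lists gave values as large. Fast-fibre markers, which summed to 1.19 to 42.7 CPM in non-exercised mtDNA hearts, had r of -0.87 with Egln1, -0.84 with Epas1 and -0.81 with Vegfa. Matrix fibroblast markers had r of -0.83 with Egln1, -0.64 with Epas1 and -0.67 with Vegfa. What share of the co-variation follows tissue make-up was not tested. In soleus the closest pair was Egln1 with Epas1 (0.72), and Epas1 with Vegfa reached 0.44. The genes most like Egln3 over the hearts, among 11019 genes whose log2 CPM averaged 1 or more, were Jam2 (r = 0.82, Spearman's rho 0.70), Car14 (0.78, rho 0.70) and Dcun1d2 (0.78, rho 0.66), with r of 0.76, 0.70 and 0.69 without B80. These are deviations within groups, over 48 libraries, and none of the 3 was called in ANT1 heart.

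The partners of the pathway were read from a list of 16 genes. In exercised heart 1 rose and 1 fell, 6.25% each beside 3.45% and 1.32% of all tested genes. Elob, an adaptor subunit of the Vhl ligase, rose by 0.33 ± 0.09 (adjusted p = 0.0266). Cited2, which competes with HIF for its coactivators, fell (-0.58 ± 0.18, adjusted p = 0.0459). In non-exercised heart 0 were called by edgeR or DESeq2, and 1 passed at an unadjusted p under 0.05. In soleus 2 rose and 3 fell in exercised mice (12.5% and 18.75% of the list, beside 21.1% and 22.4% of all tested genes), and 2 rose and 4 fell in non-exercised mice (12.5% and 25%, beside 22.4% and 25.4%), shares that do not exceed those of all genes. Elob rose by 0.39 ± 0.07 and 0.41 ± 0.07, and Cul2, the scaffold of that ligase, by 0.20 ± 0.05 and 0.20 ± 0.06. Cited2 fell in both (-1.67 ± 0.22, adjusted p = 3.76e-08, and -1.14 ± 0.22, adjusted p = 2.70e-05), as did the coactivators Crebbp (-0.30 ± 0.07 and -0.26 ± 0.07) and Ep300 (-0.25 ± 0.10 and -0.35 ± 0.10). The median of the 16 was -0.02 in exercised and -0.07 in non-exercised soleus, against -0.02 and -0.04 over all genes. In heart 0 of the list were called without the filter on low counts, in a fit of the compared groups alone and against ND6 or CO1 alone.

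In the ANT1 comparisons, calls among genes known as HIF targets were few in heart and went both ways in soleus. Of 30 listed, 29 were tested, and Epo was at 0 in every group. In heart only Ankrd37, a small ankyrin repeat protein induced by HIF, was called, and it fell (-1.48 ± 0.31, adjusted p = 0.00337 in exercised and -1.19 ± 0.30, adjusted p = 0.0362 in non-exercised mice). That is 3.45% of the list in each treatment, beside 1.32% (exercised) and 0.299% (non-exercised) of all tested genes that fell. The non-exercised call was lost without the filter, in a fit of the compared groups alone and against ND5 or ND6 alone. The median of the list was -0.06 in exercised and -0.10 in non-exercised mice, against 0.01 over all genes in both. Bnip3, a mitophagy receptor, and Slc2a1, a glucose transporter, came next in exercised heart and were not called (-0.53 ± 0.20, adjusted p = 0.120, and -0.45 ± 0.18, adjusted p = 0.148). Within heart groups the mean level of the list had a Pearson r of 0.66 with Egln3, 0.66 with Epas1 and 0.64 with Vegfa. It was 0.50 with Egln1, -0.55 with Vhl, and from -0.09 (Hif3a) to 0.14 (Egln2) with the rest. Within soleus groups it was 0.04 with Egln3. The part of tissue make-up in these values was not tested.

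In soleus 4 targets rose and 10 fell in exercised mice, 13.8% and 34.5% of the list beside 21.1% and 22.4% of all tested genes. In non-exercised mice 5 rose and 10 fell, 17.2% and 34.5% beside 22.4% and 25.4%. With so many genes called in soleus, nothing particular to HIF targets is read from these counts. Those that rose included Higd1a, a mitochondrial protein of the respiratory chain (0.45 ± 0.06 and 0.51 ± 0.06), Fam162a, also mitochondrial (0.41 ± 0.07 and 0.53 ± 0.07), and the glycolytic enzymes Pgk1 and Hk2. Those that fell included Slc2a1 (-1.54 ± 0.20, adjusted p = 2.42e-08, and -1.13 ± 0.20, adjusted p = 8.06e-06), Ldha (-0.53 ± 0.07 and -0.35 ± 0.07), Pdk1, which holds back pyruvate oxidation (-0.49 ± 0.09 and -0.59 ± 0.09), and Pfkl (-0.68 ± 0.11 and -0.64 ± 0.11). Ankrd37 fell here too (-1.66 ± 0.30 and -1.27 ± 0.29). The list median was -0.16 in both treatments. Markers of matrix fibroblasts fell as well in ANT1 soleus, 7 of 8 in each treatment, with a summed level of 340.0 to 525.5 CPM in exercised ANT1 against 462 to 3193 CPM in exercised mtDNA mice, and of 297 to 711 against 448 to 4825 CPM in non-exercised mice. Macrophage markers fell in 8 of 8 (38.1 to 57.6 CPM against 64.3 to 211.5 CPM) and in 6 of 8 (31.3 to 87.7 against 29.35 to 322 CPM). Markers of fast fibres, which are rich in glycolytic enzymes, fell in 5 of 8 in exercised mice (summed level 14626 to 26695 CPM in ANT1 against 20969 to 37521 CPM), while in non-exercised mice 4 fell and 2 rose (18541 to 29061 CPM against 18684 to 30648 CPM). The slow-fibre list also holds Myh2, a myosin of fast IIA fibres. Of its genes 1 of 7 fell in exercised mice (32428 to 37015 CPM in ANT1 against 31053 to 41081 CPM) and 5 of 7 in non-exercised mice (25864 to 35027 against 30543 to 43943 CPM), and 0 rose. The part of these cells in the lower targets was not tested.

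**Figure D5:**
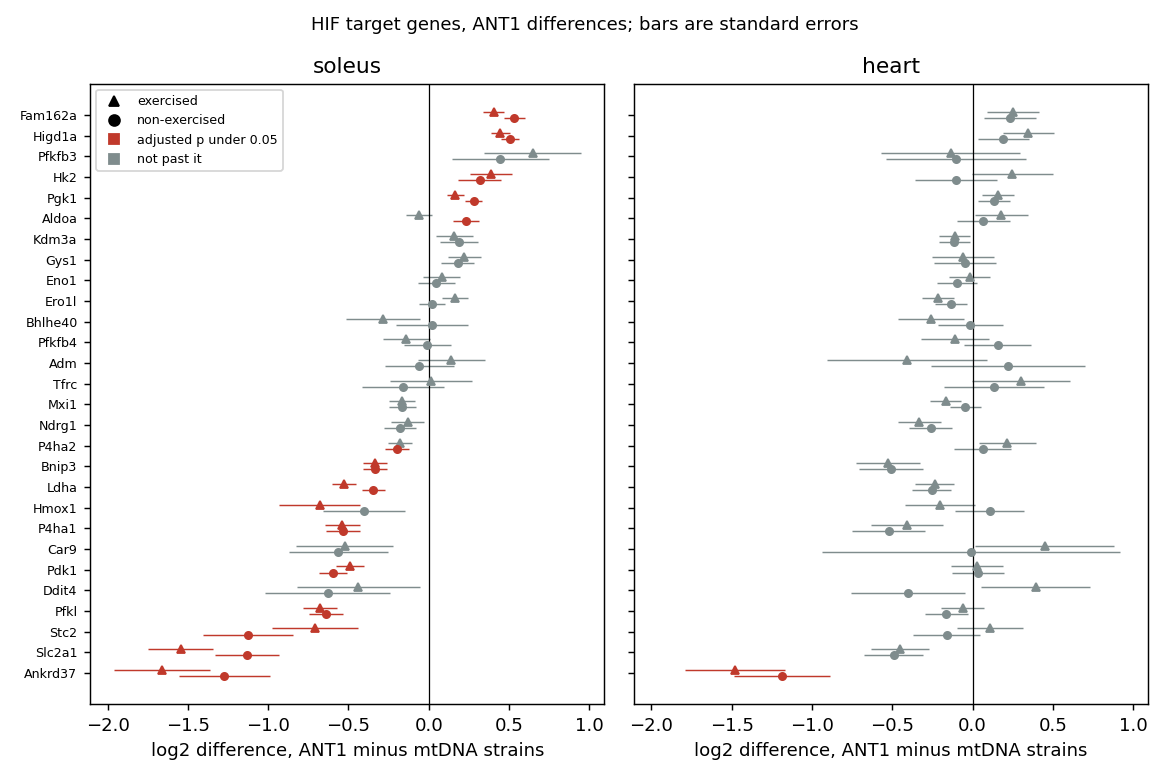
Log2 difference of HIF target genes, ANT1 minus the mean of the mtDNA strains, in soleus and heart of exercised (triangles) and non-exercised (circles) mice, with standard errors and red for an adjusted p under 0.05. In soleus red points lie on both sides of 0, among them Fam162a at 0.53 in non-exercised and Ankrd37 at -1.66 in exercised mice, and in heart only Ankrd37 is red.

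Around Vegfa, the other ligands and receptors were read from a list of 11 genes. In exercised soleus 2 rose and 2 fell, 18.2% each beside 21.1% and 22.4% of all tested genes. In non-exercised soleus 5 rose and 3 fell, 45.45% and 27.3% beside 22.4% and 25.4%. Vegfb, a relative of Vegfa tied to lipid uptake in muscle, rose by 0.89 ± 0.08 (adjusted p = 3.73e-12) and 1.001 ± 0.08 (adjusted p = 6.00e-14), values above those of Vegfa in a difference that was not itself tested. The co-receptor Nrp1 rose by 0.45 ± 0.12 and 0.49 ± 0.11, Figf (Vegfd) fell (-0.65 ± 0.16 and -0.67 ± 0.16), and Angpt1, a ligand of the receptor Tek, fell (-0.33 ± 0.12 and -0.60 ± 0.12). The receptors Flt1 (0.48 ± 0.13), Flt4 (0.45 ± 0.18) and Kdr (0.41 ± 0.17) rose in non-exercised mice. Endothelial markers moved beside them: 4 of 8 rose in non-exercised soleus (summed level 188 to 346 CPM in ANT1 against 159.8 to 231 CPM), and 0 of 8 were called in exercised soleus by edgeR or DESeq2 (170.0 to 299 CPM against 163.5 to 242 CPM, 0 at an unadjusted p under 0.05). None of the 8 was at 0 in any group. Red blood cell markers rose in 4 of 5 tested in exercised and in 5 of 5 in non-exercised soleus. Within soleus groups Epas1 had a Pearson r of -0.008 with the mean level of the endothelial markers. It was -0.66 with that of the matrix fibroblast markers and -0.66 with that of the macrophage markers, most of which fell in ANT1 soleus. The part of any of these cells in the rise of Epas1 and of the receptors was not tested.

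Vegfb also differed between the tissues in its ANT1 difference, soleus exceeding heart by 0.59 ± 0.20 in exercised (adjusted p = 0.0443) and 0.86 ± 0.20 in non-exercised mice (adjusted p = 0.00189). In heart, 1 of the 11 genes was called, Nrp1, which fell in exercised mice (-0.52 ± 0.15, adjusted p = 0.0411), as did 1 of 8 endothelial markers, Tek (-0.44 ± 0.13, adjusted p = 0.0327). Beside these, 1.32% of all tested genes fell in exercised heart, and 1 gene is not read as a result about its list. In non-exercised heart 0 of 11 were called by edgeR or DESeq2, and 0 at an unadjusted p under 0.05. Vegfb in heart differed by 0.33 ± 0.17 in exercised mice (adjusted p = 0.280). The Nrp1 and Tek calls were lost without the filter on low counts, in a fit of the compared groups alone and against ND5 or ND6 alone.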

How the data were processed

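Poly(A) RNA of soleus and heart was sequenced, and 96 libraries are used here. The authors deposited expected counts and FPKM per gene; STAR 2.5.2b, RSEM 1.2.28 and mm10 are named in the submitters' processing notes, while the annotation, settings and strand are not given in the sources used here. Expected counts were rounded, genes with low counts were left out (filterByExpr, edgeR 4.0.16, R 4.3.3), and libraries were scaled by TMM. CPM is relative to that scaled size. One mean per strain and treatment was fitted in each tissue with edgeR's quasi-likelihood test, and calls were made where Benjamini-Hochberg adjustment over all tested genes gave a p under 0.05. ANT1 was set against the mean of ND5, ND6 and CO1 of the same treatment. Tissue comparisons used 1 fit over both tissues. Deposited FPKM were taken to log2 with a pseudocount of 0.1 for limma 3.58.1, and DESeq2 1.42.0 was another alternative. Log2 CPM for correlations used a prior count of 2. Per-sample columns whose names match no title, 24 in the count tables, were not used, so B6 control mice are not analysed here.

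The members and gene lists were chosen with earlier results of these data known. Genes named are the 8 members, Slc25a4, the 3 tested genes with the smallest p of each list in each ANT1 comparison, and the 3 genes most like Egln3 in heart; other list genes were named after their values were seen. The values of 1 HIF target, which counts in the list's totals, are not reported here or drawn. Mouse codes are shared by 19 hearts and soleus muscles, 1 of them with contradicting treatments. Deviations of same-coded libraries over 13555 genes had a median r of 0.05 (-0.30 to 0.33, 8 over 0.1). The codes come from the titles and name the mouse, so the mouse was a block in an alternative for tissue comparisons. Groups of 6 hold different mice, and no library pair was identical. Scripts were tested on simulated counts.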

Additional observations from a re-analysis of the deposited data

Results flagged for a closer look

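The ANT1 difference departed between the tissues, by the test of the difference itself, for Epas1 (soleus minus heart 0.74 on the log2 scale) and Vhl (-0.54) in non-exercised mice. For Egln3 it was 2.07 in non-exercised and 1.56 in exercised mice, values given as a description because they rest on the heart levels known when the genes were chosen. The Vhl value was not called with the mouse as a block.

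Within groups of 6, a library lay far from the rest in 8 of 128 groups and genes, by Dixon's ratio of its gap to the group's range. Chance gives about 1 in 20, so a number of this order says little by itself. In heart, ND6 mouse I50 had the highest exercised Egln1 (ratio 0.708, 368 CPM) and CO1 mouse E75 the lowest non-exercised Egln1 (ratio 0.637, 358 CPM). ND5 mouse B5 had the highest non-exercised Egln2 (ratio 0.733, 36.25 CPM). ND6 mouse I4 had the lowest exercised Epas1 (ratio 0.656, 180.5 CPM) and the lowest exercised Vegfa of its group (ratio 0.634, 127 CPM). In soleus the libraries concerned Vegfa: exercised ND6 mouse I59 was lowest (ratio 0.640, 156 CPM), non-exercised CO1 mouse E42 was highest (ratio 0.700, 374 CPM), and exercised CO1 mouse E56 was lowest (ratio 0.631, 209 CPM).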

How the results depend on the processing

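On the deposited FPKM scale (limma), where the median gene shifts between strains, 3 members in place of 1 were called in non-exercised heart and 3 in place of 1 in exercised heart, among them Hif1a (-0.45 and -0.38). Of 15723 genes, 46 were called higher and 1287 lower in non-exercised heart on that scale, and 48 and 1750 in exercised heart. On that scale the sign turned for Egln2 in non-exercised heart (-0.26), for Egln1 (-0.46), Egln2 (-0.50) and Vegfa (-0.038) in exercised soleus and for Egln1 (-0.56), Egln2 (-0.63) and Vegfa (-0.11) in non-exercised soleus. Of values called on neither scale, the sign also turned for Epas1 (-0.21) and Vegfa (-0.27) in non-exercised heart and for Egln2 (-0.08), Epas1 (-0.03), Vegfa (-0.22) and Hif3a (-0.02) in exercised heart. With atrial markers as a covariate 3 members were called in exercised heart, where 992 of all genes were called higher and 457 lower, against 543 and 208 without it. In non-exercised heart 635 genes were called higher and 241 lower with that covariate, against 97 and 47 without it. Among pairs of mtDNA strains 1 member was called without the filter on low counts, against 3 with it. Leaving out each library in turn gave 1 to 2 calls in exercised heart, 1 in non-exercised heart, 5 in exercised soleus, 4 to 5 in non-exercised soleus and 0 for responders. The counts for ANT1 heart include Egln3, whose fall was known when the genes were chosen. With the mouse as a block, 7 members differed between tissues and 2 in the ANT1 tissue difference, against 7 and 3 without it, and 1 with and without it in exercised mice. The counts for the ANT1 tissue difference include Egln3, a description, and the 1 in exercised mice is Egln3 alone. Without the block, 86.8% of all genes differed between tissues. In the ANT1 tissue difference 11.1% were called in non-exercised and 9.26% in exercised mice. Over all genes, the 543 higher and 208 lower calls in exercised heart became 354 and 229 with mtDNA counts removed, 209 and 138 without the filter and 512 and 331 by DESeq2. In soleus 354 and 11226 genes (non-exercised) and 384 and 10426 genes (exercised) were called higher and lower on the FPKM scale. Without the heart of B80, 39 member results kept their side of the threshold, and Vhl in ND5 against CO1 heart lost its call (0.32). The causes of these shifts were not tested. ANT1 was not set against B6 mice, which are not analysed here. Depth limits Hif3a, with as few as 1 count in a soleus library, and Vhl in soleus.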
